A study of Mus musculus with 30 samples.

Results

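The feces of 6 female C57BL/6 mice given salidroside were compared with those of 6 model mice by sequencing of the bacterial 16S rRNA gene. These 12 mice were chosen by the group in their sample labels, out of 30 mice in 5 groups. All 12 received a high-fructose diet (HFru), and the labels give an age of 6 weeks, the age at purchase in the study's methods. The salidroside mice were dosed by gavage with 50 mg/kg, and the model mice received saline the same way. The 6 control mice, on a normal diet with saline by gavage, are given beside the comparison as the background. The 6 tyrosol mice (23 mg/kg by gavage) and the 6 hydroxytyrosol mice (26 mg/kg) were all on the HFru diet. They are used to show where single ASVs were also found, and in an alternative fit of all 30 mice. Neither the labels nor the methods tie a mouse to a cage during feeding, so the compound and any shared housing within a group cannot be told apart.

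Salidroside, known from Rhodiola, is the glucoside of tyrosol, a phenolic alcohol also found in olives. The bacterial 16S rRNA gene is present in every bacterium and differs in sequence between taxa, so the reads of a sample can be sorted by taxon. Each distinct sequence counted is called an amplicon sequence variant (ASV). Bacteria of the mouse large intestine live almost without oxygen, and the families that usually fill it (S24-7, Lachnospiraceae, Ruminococcaceae and others) are mostly strict anaerobes or ferment in low oxygen. Genera such as Acinetobacter, Sporosarcina and Sphingobacterium are mostly aerobes known from soil, water, skin and surfaces.

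The 12 mice held 5488 ASVs in 303 genus labels, 161 families and 28 phyla, and 12.7% of their counts carried no genus name. The authors' filtered table held between 43979 and 91848 counts per salidroside mouse (median 87214) and between 87731 and 104427 per model mouse (median 98991). The groups started from similar numbers of reads (medians 141458 and 139148, exact permutation test, p = 0.688), but chimera removal took 28.9% of the merged reads of salidroside mice on average and 19.1% of those of model mice (exact permutation test, p = 0.0087). Whether this difference moved any taxon was not tested. A taxon with 0 counts may still hold up to 3 counts, a share of between 0.00287% and 0.00682% in a single mouse. Such limits take in counting error alone, because the reads are PCR copies that carry no molecular identifier. All values below are shares of a mouse's counts, and the total amount of bacteria was not measured, so a larger share of a taxon cannot be told apart from less of the other taxa.

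The leading genus was Acinetobacter in 5 of the 6 model mice and in 3 of the 6 salidroside mice. It held 42.5, 51.9, 84.2, 76.3, 66.1 and 0.166% of the counts of model mice 1 to 6, and 71.1, 59.5, 10.1, 0.0571, 9.43 and 44.1% of those of salidroside mice 1 to 6. The groups overlapped widely, with a salidroside mouse the higher in 11 of 36 pairs, and the difference of the means did not pass the test (32.4% ± 29.8 against 53.5% ± 30.3, SD, n = 6 each, exact permutation test, p = 0.249). The 3 salidroside mice without a leading Acinetobacter differed from each other. Mouse 3 was led by Jeotgalicoccus (40.9%), a salt-tolerant relative of Staphylococcus, mouse 4 by Sporosarcina (27.97%), a spore-forming soil genus, and mouse 5 by Lactobacillus (33.8%), a fermenting gut genus. Model mouse 6 was led by Sporosarcina too, at 41.9%. The stacked plot of genera by mouse shows these leading genera side by side.

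**Figure D1:**
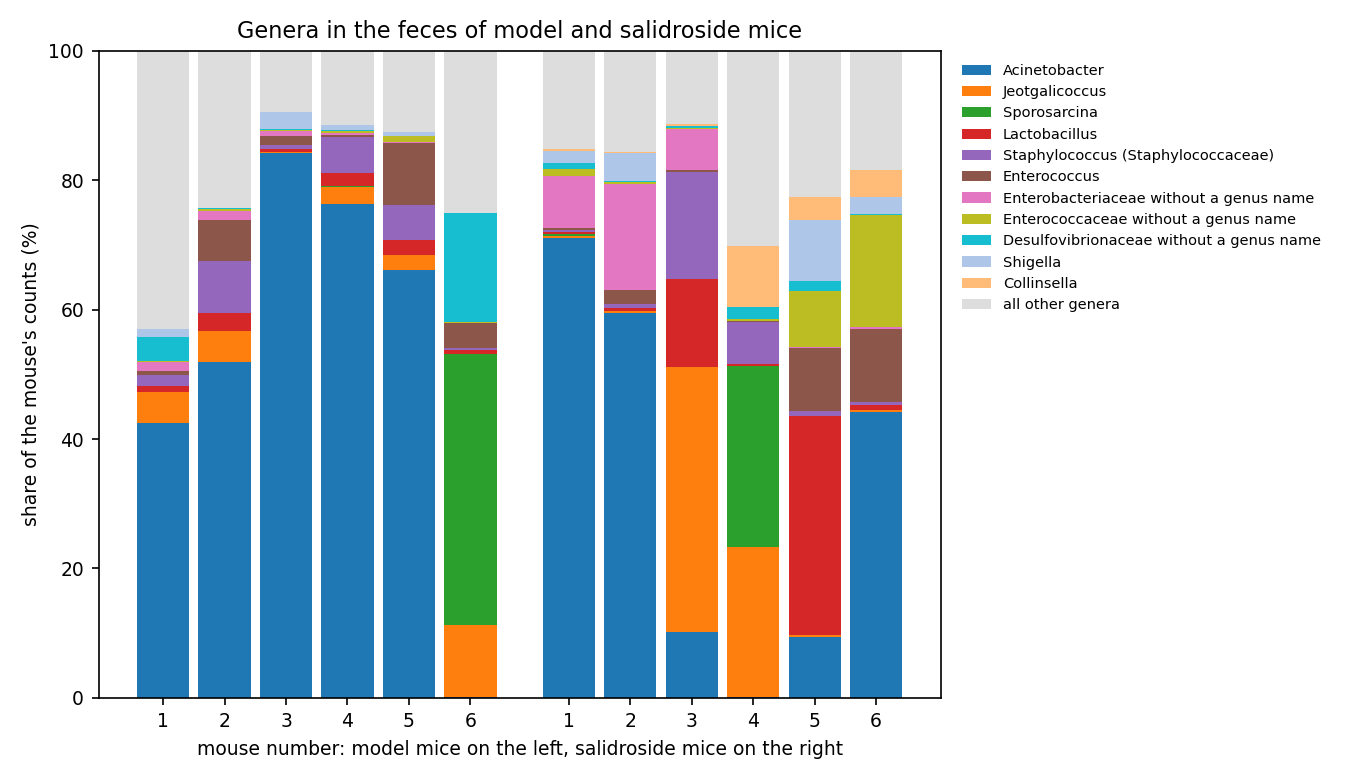
Share of each mouse's counts (%, vertical axis) held by the 10 most abundant genera and Collinsella in 6 model mice (left) and 6 salidroside mice (right), 1 bar per mouse. Acinetobacter holds from 42.5 to 84.2% in model mice 1 to 5 and from 44.1 to 71.1% in salidroside mice 1, 2 and 6, while salidroside mice 3, 4 and 5 are led by 3 different genera.

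Mice rich in Acinetobacter shared its main ASV. The ASV of Acinetobacter lwoffii numbered ASV_14106 was the largest Acinetobacter ASV in all 12 mice and held 43.4% of that genus's counts in salidroside mice and 52.3% in model mice. Sporosarcina did not share its leading ASV: ASV_61812 held 61.4% of the genus in salidroside mouse 4, and ASV_8872 held 74.2% in model mouse 6. Of the 160 Acinetobacter ASVs tested, 113 had a log2 fold change below 0 and 1, ASV_40053, passed the threshold (described below). For Lactobacillus, 9 of 11 tested ASVs lay above 0 and 0 passed, and for Shigella 6 of 6 lay above 0 and 0 passed. Over all 358 tested ASVs, 165 lay above 0.

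The quasi-likelihood test of edgeR was run over the 51 families that reached 10 counts in 4 or more of the 12 mice, with p-values adjusted by Benjamini-Hochberg over all of them and a threshold of 0.05. Higher in salidroside mice were 2 families (3.92%), Coriobacteriaceae and Erysipelotrichaceae. Lower were 6 families (11.8%): Sphingobacteriaceae, Microbacteriaceae, Xanthomonadaceae, Caulobacteraceae, Brucellaceae and Carnobacteriaceae. By the exact permutation test of the mean shares, 8 of the 51 (15.7%) had an unadjusted p under the same threshold and 0 passed after adjustment. That test cannot give a p below 0.0022 with 6 mice a side, and the adjusted p of the families at that limit was 0.0552.

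Coriobacteriaceae, a family of anaerobic Actinobacteria that metabolise bile acids and plant phenols, rose with no overlap between the groups, as 1 family (1.96%) did in each direction. Its share was 0.335, 0.173, 0.284, 9.48, 3.86 and 4.22% in salidroside mice 1 to 6, and from 0.00717 to 0.160% (median 0.0829) in model mice. All 36 pairs had the salidroside mouse higher (edgeR, log2 fold change 4.78, SE 1.32, adjusted p = 0.0034). The control mice held 0.924% on average. The call was kept without any single mouse of the 12.

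Within Coriobacteriaceae the difference lay in Collinsella, an anaerobe that ferments sugars and alters bile acids. Salidroside mice 1 to 6 held 235, 23, 232, 8061, 3061 and 3804 Collinsella counts, or 0.315, 0.0523, 0.253, 9.40, 3.45 and 4.15% of their counts. Model mice 1 to 5 held 0 counts and model mouse 6 held 6. In control mice Collinsella held 0.000598% on average, with counts in 1 mouse, so the control share of the family came from other members. Salidroside mice 4, 5 and 6 were high, and mice 1, 2 and 3 were low but still above every model mouse. Adlercreutzia, the other genus of the family that was tested, did not pass (0.1001% against 0.0724%, edgeR, log2 fold change -0.01, adjusted p = 0.997). A single ASV, ASV_11531, assigned to Collinsella stercoris, held 99.5% of the Collinsella counts of salidroside mice and was found in all 6 of them.

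Erysipelotrichaceae, Firmicutes that respond to diet, was higher in salidroside mice by a log2 fold change of 3.50 (SE 1.26, edgeR adjusted p = 0.0406). The shares were 0.984, 0.0705, 0.159, 10.5, 9.68 and 2.40% in salidroside mice 1 to 6 and from 0.0502 to 0.630% in model mice, so salidroside mice 2 and 3 lay among the model mice. The 2 highest mice reached their level with different genera: a genus labelled Clostridium within this family held 9.42% of mouse 4, and Allobaculum held 9.55% of mouse 5. Only 4 of the 12 fits that left out a mouse kept the call, and the adjusted p rose to 0.254 without salidroside mouse 5.

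Among the families that fell, Sphingobacteriaceae, aerobic Bacteroidetes of soil and water, had 0 counts in every salidroside mouse and counts in every model mouse. No salidroside mouse reached the minimum of 10 counts for this family, Microbacteriaceae or Xanthomonadaceae, so these 3 were tested on the strength of the model mice alone and could only lie below 0. In model mice 1 to 6 the share of Sphingobacteriaceae was 0.0262, 0.379, 0.0513, 0.0225, 0.107 and 0.00996%. Against the limit of 3 counts per mouse this is at least 24.6-fold lower in salidroside mice, and at least 10.7-fold without model mouse 2, the highest (edgeR adjusted p = 8.9e-05). Every count of the family belonged to Sphingobacterium. The control mice held 0.00754% of it on average.

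Microbacteriaceae, soil and plant Actinobacteria, also had 0 counts in all 6 salidroside mice, against 18, 54, 0, 12, 3 and 38 counts in model mice 1 to 6 (at least 5.44-fold lower, edgeR adjusted p = 0.0023). Xanthomonadaceae, aerobic Proteobacteria of water and plants, had between 0.0528 and 0.179% in model mice 2 to 6, 0 in model mouse 1, and at most 0.00536% in salidroside mice (edgeR, log2 fold change -6.10, SE 1.61, adjusted p = 0.0023). Its genus Stenotrophomonas accounted for 0.0797 of the 0.0938% that model mice held on average. Each of these 3 families made up at most 0.379% of any mouse.

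The calls of Caulobacteraceae and Brucellaceae, both Alphaproteobacteria of water and soil, were lost without model mouse 2. Model mouse 2 held 3.63% Caulobacteraceae, while the other 5 model mice held from 0.00479 to 0.0900% and salidroside mice from 0 to 0.0192%. It held 3.21% Brucellaceae, against at most 0.1504% in any other of the 12 mice. With it, the log2 fold changes were -5.45 (edgeR adjusted p = 0.0023) and -4.06 (adjusted p = 0.0213). Without it they were -1.13 (adjusted p = 0.628) and -1.51 (adjusted p = 0.575). Caulobacteraceae was called in the other 11 fits that left out a mouse. Brucellaceae was called in 9 of the 12, and was also lost without salidroside mouse 3 (edgeR adjusted p = 0.0565) or salidroside mouse 6 (edgeR adjusted p = 0.0541). Carnobacteriaceae (fermenting lactic acid bacteria) ran from 0 to 0.1505% in model mice and from 0 to 0.0120% in salidroside mice (edgeR adjusted p = 0.0446), and 6 of the 12 fits without a mouse kept it.

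**Figure D2:**
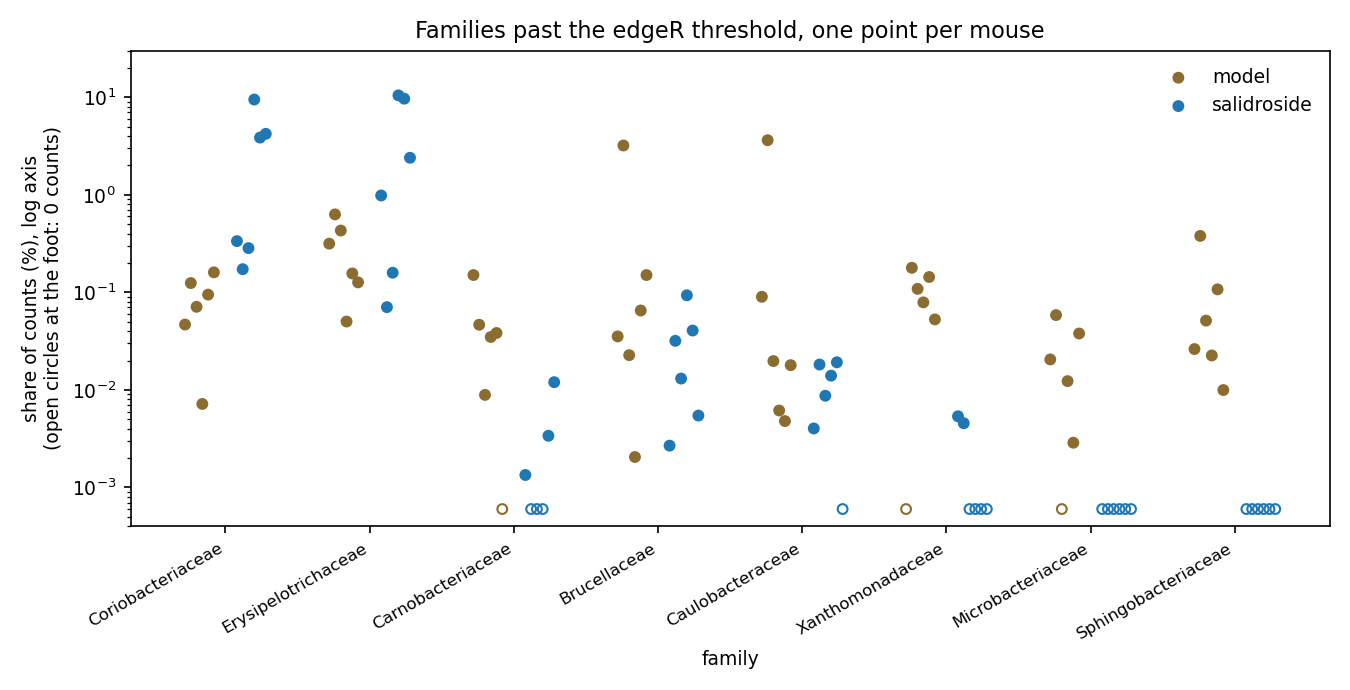
Share of counts (%, log axis) of the 8 families past the edgeR threshold, 1 point per mouse for 6 model mice (brown) and 6 salidroside mice (blue). Open circles at the foot of the axis are mice with 0 counts. Coriobacteriaceae does not overlap between the groups, Sphingobacteriaceae has 0 counts in every salidroside mouse, and Caulobacteraceae and Brucellaceae overlap between the groups with model mouse 2 far above all other mice.

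Of the 10 most abundant families, Coriobacteriaceae and Erysipelotrichaceae passed the threshold and the other 8 did not. Moraxellaceae, the family of Acinetobacter, held 33.3% ± 30.6 in salidroside and 56.2% ± 30.4 in model mice (SD, n = 6 each, edgeR adjusted p = 0.669). Enterobacteriaceae, facultative anaerobes that include Shigella and Escherichia, had 10.97, 22.6, 6.27, 0.0886, 9.58 and 3.15% in salidroside mice 1 to 6 and from 0.0110 to 4.07% in model mice. Its mean difference had an unadjusted exact permutation p of 0.039 and an adjusted p of 0.284, with a salidroside mouse higher in 29 of 36 pairs. Lactobacillaceae held 8.24% ± 13.6 and 1.55% ± 0.964 (SD, n = 6 each), a difference that came from salidroside mice 3 (13.6%) and 5 (33.9%), and a salidroside mouse was the lower one in most pairs (14 of 36 higher). Desulfovibrionaceae, sulfate-reducing bacteria, held 0.940% ± 0.767 and 3.996% ± 6.88 (SD, n = 6 each), with model mouse 6 at 17.7%. Odoribacteraceae, gut Bacteroidales, came closest to the threshold among the families above 0 that missed it (0.0733% against 0.00686%, edgeR, log2 fold change 3.39, adjusted p = 0.0884).

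Over the 90 genera tested, 1 was higher in salidroside mice (1.11%) and 3 were lower (3.33%). The higher genus was Collinsella (edgeR, log2 fold change 10.68, SE 2.11, adjusted p = 0.0023). The lower ones were Sphingobacterium (log2 fold change -9.55, SE 1.96, edgeR adjusted p = 0.0031), Microbacteriaceae without a genus name (-7.34, SE 1.91, edgeR adjusted p = 0.0263) and Stenotrophomonas (-6.23, SE 1.76, edgeR adjusted p = 0.0322). Only Collinsella and Sphingobacterium were called in every fit that left out a mouse. Stenotrophomonas was called in 7 of those 12 fits, and Microbacteriaceae without a genus name in 9. By the exact test of shares, 8 of the 90 (8.89%) had an unadjusted p under the threshold and 0 passed after adjustment. All 4 called genera reached the minimum of 10 counts in mice of 1 group alone, and 0 of the 85 genera that reached it in both groups were called. Fitted fold changes of genera at 0 in a whole group depend on the small count edgeR adds and are not limits.

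Of the genera the study names that were tested, Collinsella passed the threshold and the others did not. Jeotgalicoccus held 10.9% ± 17.3 in salidroside and 4.32% ± 3.71 in model mice (SD, n = 6 each, edgeR adjusted p = 0.680). Lactobacillus held 8.23% ± 13.6 and 1.54% ± 0.964 (SD, n = 6 each, edgeR adjusted p = 0.438). Enterococcus held 3.99% ± 5.16 and 3.68% ± 3.72 (SD, n = 6 each, edgeR adjusted p = 0.938). Akkermansia, a mucus-degrading genus, held 1.88, 0.603, 0.0142, 2.91, 0.364 and 0.0447% in salidroside mice 1 to 6, and model mouse 1 alone reached 5.36% in a group that otherwise held 0.751% or less (edgeR adjusted p = 0.990). It had 0 counts in all 6 control mice. Oscillospira, a slow-growing butyrate-associated genus, was at 0.551% ± 0.434 and 0.310% ± 0.355 (SD, n = 6 each, edgeR adjusted p = 0.869). Staphylococcus of the family Staphylococcaceae was at 4.18% ± 6.53 and 3.58% ± 3.18 (SD, n = 6 each, edgeR adjusted p = 0.869). Shigella was at 3.04% ± 3.52 and 0.904% ± 0.976 (SD, n = 6 each, edgeR adjusted p = 0.826). Fusobacterium had 0 counts in every salidroside mouse and 3 counts in model mouse 2.

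The genera listed as obligate aerobes lay on 1 side of 0. This list holds 28 genera, of which 23 had counts and 13 were tested. For 2 of them, Sphingobacterium and Stenotrophomonas, no salidroside mouse reached the minimum of 10 counts, so they were tested on the strength of the model mice alone and had to lie below 0. The other 11 reached it in mice of both groups. All 13 had a log2 fold change below 0, beside 48 of 90 over all tested genera. Their median was -2.74, which includes the 2 fixed genera, beside -0.10 over all tested genera. Among genera that reached the minimum in both groups, 11 of 11 on the list lay below 0, beside 44 of 85 in all. Of the 13, those 2 passed the threshold, 0 of the other 11 passed and 0 rose, beside 3 of 90 lower (3.33%) and 1 of 90 higher (1.11%) over all tested genera. With centred log-ratios 11 of the 13 lay below 0. Together the list held 73.8, 60.4, 10.4, 28.9, 10.7 and 45.2% of the counts of salidroside mice 1 to 6, and 56.4, 61.2, 86.5, 81.1, 72.2 and 42.8% of those of model mice 1 to 6. Salidroside mice 1, 2 and 6 lay inside the range of the model mice. The means differed by -28.5 percentage points, with a 95% interval of -57.0 to 0.897 that includes 0. In control mice the list held 24.8% ± 25.5 (SD, n = 6). The listed aerobes held more counts than the listed gut families in all 6 model mice and in 3 of the 6 salidroside mice, as they did in control mice 1 (54.4% against 5.27%) and 6 (57.0% against 9.27%).

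**Figure D3:**
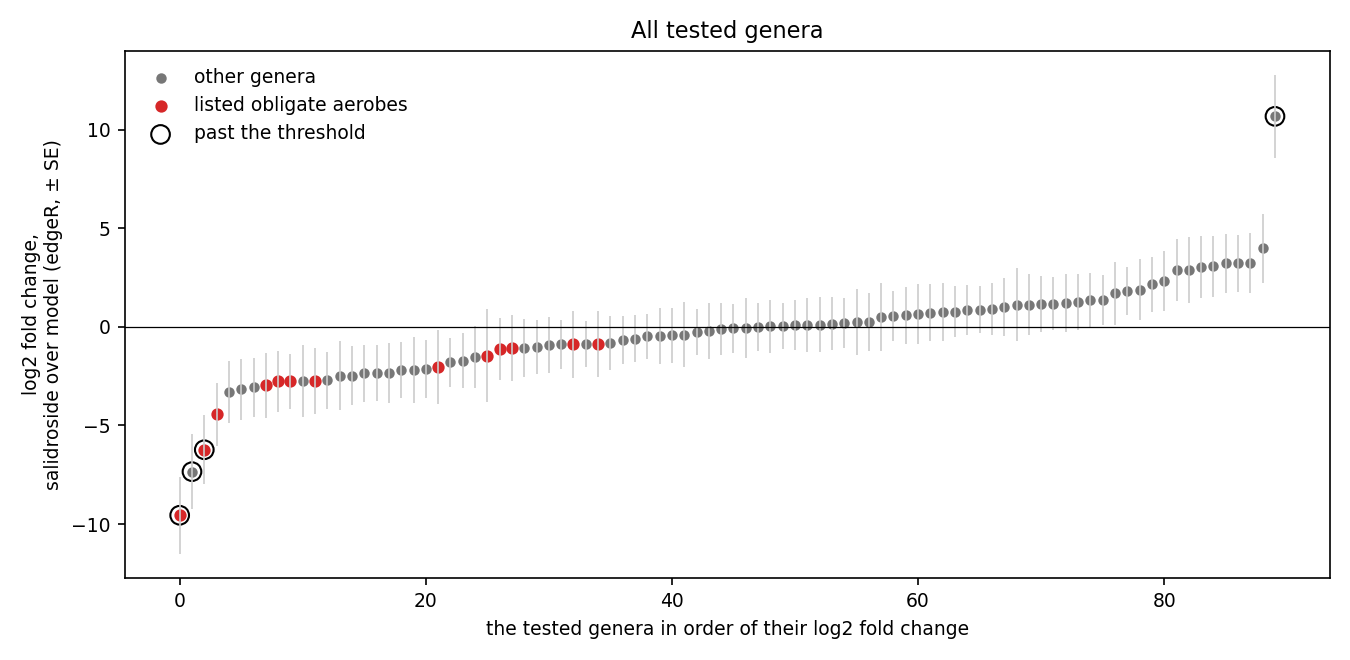
The log2 fold change of salidroside over model mice (edgeR, vertical axis, bars ± SE) for the 90 tested genera in order of size. All 13 tested genera of the list of obligate aerobes (red) lie below 0, and the 4 circled genera passed the threshold.

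The listed gut families lay mostly above 0, and their summed share overlapped between the groups. This list has 25 families, all with counts, and 19 were tested. Of these, 14 lay above 0 with a median log2 fold change of 0.81, beside 21 of 51 above 0 and a median of -0.61 over all tested families. The 2 that passed, Coriobacteriaceae and Erysipelotrichaceae, were the 2 of 51 (3.92%) that were higher over all tested families. Their summed share was 9.85, 8.13, 15.2, 35.2, 54.4 and 15.04% in salidroside mice 1 to 6 and 18.7, 7.93, 4.58, 2.72, 3.70 and 36.1% in model mice 1 to 6. The difference of 10.7 percentage points had a 95% interval of -8.79 to 31.1. Counted as a share of the gut families alone, Coriobacteriaceae was 11.6% ± 12.5 in salidroside and 1.11% ± 0.940 in model mice (SD, n = 6 each, exact permutation test, p = 0.011, adjusted p = 0.271 over 25 families), with a salidroside mouse higher in 34 of 36 pairs.

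All 5 tested Bacteroidales families lay above 0, with a median of 1.21, and 0 passed, where 21 of all 51 tested families lay above 0 and 8 passed. Bacteroidales are the main Gram-negative fibre degraders of the gut. Summed over the list they held 1.38% ± 0.948 in salidroside mice and 0.671% ± 0.699 in model mice, against 21.2% ± 19.3 in control mice (SD, n = 6 each), which ranged from 0.405 to 39.5%. Of 6 tested Clostridiales families, 4 lay above 0 and 0 passed, and the list held 3.98 and 3.94% on average. Over all 90 tested genera, 42 lay above 0 and 4 passed. For the Staphylococcaceae and Aerococcaceae genera, 5 of 7 lay above 0 and 0 passed, but with centred log-ratios all 7 lay below 0. This list held 63.2 and 31.2% of salidroside mice 3 and 4 and at most 1.13% of the other 4 salidroside mice, while 5 of the 6 model mice held from 8.43 to 14.8%. The lactic acid bacteria had 1 of 4 tested genera above 0 and 0 called, with 2 or 3 of 4 above 0 under other scalings. Both tested genera on the list of Enterobacteriaceae, Shigella and Proteus, lay above 0 and 0 were called. Enterobacteriaceae without a genus name, which is not on the list, held 5.202% against 0.673% on average (edgeR, log2 fold change 3.02, adjusted p = 0.386). Both mucus-layer genera, Akkermansia and Mucispirillum, lay below 0 and 0 were called, and with centred log-ratios both lay above 0.

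Below the level of genera, 13 of 358 tested ASVs were higher in salidroside mice (3.63%) and 2 were lower (0.559%). Of these 15, 14 reached the minimum of 10 counts in mice of 1 group alone, which fixed their direction. Among the 339 ASVs that reached it in both groups, 1 was called, ASV_7349. Of the 13, 11 had 0 counts in all 6 model mice and 10 had 0 counts in all 6 model and all 6 control mice. They belonged to 12 labels at genus level, and 10 of them were found in 5 or 6 salidroside mice. ASV_1360 and ASV_20714, both Enterococcaceae without a genus name, held 5298 and 4043 counts over the salidroside mice, of which most were in mice 5 and 6. ASV_1360 held 0.170, 0.0159, 0.0229, 0.0385, 1.69 and 3.93% of salidroside mice 1 to 6, at least 316-fold above the model mice by their limit of 3 counts and at least 125-fold without mouse 6 (edgeR adjusted p = 0.0053). ASV_7349, of Lachnospiraceae, reached 2.87, 1.97 and 3.09% in salidroside mice 4, 5 and 6 and at most 0.0215% in the other 9 mice (edgeR adjusted p = 0.0279).

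A pair of these ASVs, ASV_43634 and ASV_87123, were low but found in every salidroside mouse. ASV_43634, of Desulfovibrionaceae, had 111, 56, 82, 246, 30 and 59 counts in salidroside mice 1 to 6 and 0 counts in all model mice, at least 40.4-fold (edgeR adjusted p = 0.0233). It also had 0 counts in all 6 control, all 6 tyrosol and all 6 hydroxytyrosol mice. ASV_87123, of Helicobacter, had from 11 to 211 counts in the 6 salidroside mice and 0 in all model and control mice (at least 41.6-fold, edgeR adjusted p = 0.0233). The family of ASV_43634 as a whole did not pass. Among Desulfovibrionaceae without a genus name, a different ASV, ASV_60742, was the largest in all 6 salidroside mice and in model mice 1, 4 and 6, while ASV_88503 was the largest in model mice 2, 3 and 5.

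Other gut ASVs with 0 counts in all model mice were ASV_27772 of Coprococcus, ASV_2594 of Odoribacter, ASV_89540 of Parabacteroides distasonis, ASV_11861 of Bacteroides and ASV_64055 of Desulfovibrio oxamicus. Each was found in 4 or 5 salidroside mice, with at least 4.37-fold (ASV_64055) to at least 23.3-fold (ASV_27772) against the limit. The remaining 2 were ASV_20552 of the order Lactobacillales and ASV_71486 of Enterobacteriaceae, which had counts in 3 control mice. The 2 lower ASVs, ASV_40053 of Acinetobacter and ASV_8011 of S24-7, had 0 counts in all salidroside mice and counts in 4 of the 6 model mice each. S24-7 as a family was not lower: its log2 fold change was 1.21 (edgeR adjusted p = 0.557), and 8 of its 9 tested ASVs without a genus name lay above 0.

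Most of the 13 higher ASVs were also present in the groups given related compounds. Of the 13, 7 were found in 5 or 6 tyrosol mice and in 5 or 6 hydroxytyrosol mice, and 1, ASV_43634, was found in neither group. ASV_11531 of Collinsella stercoris had counts in 6 of 6 salidroside, 6 of 6 tyrosol and 6 of 6 hydroxytyrosol mice, in 1 model mouse (5 counts) and in 1 control mouse. The plot of ASV counts shows this division of the 5 groups.

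The number of ASVs called moved with single mice. The count of 15 fell to 0 in edgeR without model mouse 4 or without model mouse 5, where 27 and 28 ASVs had an unadjusted p under the threshold, to 4 without model mouse 2 and to 5 without model mouse 3. It fell to 7 without salidroside mouse 6 and rose to 27 without model mouse 1. The 11 higher ASVs with 0 counts in all model mice keep those zeros without any single model mouse by definition, so leaving out a model mouse does not test their shares. No ASV passed the exact permutation test of shares after adjustment, where 19 of 358 (5.31%) had an unadjusted p under the threshold.

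**Figure D4:**
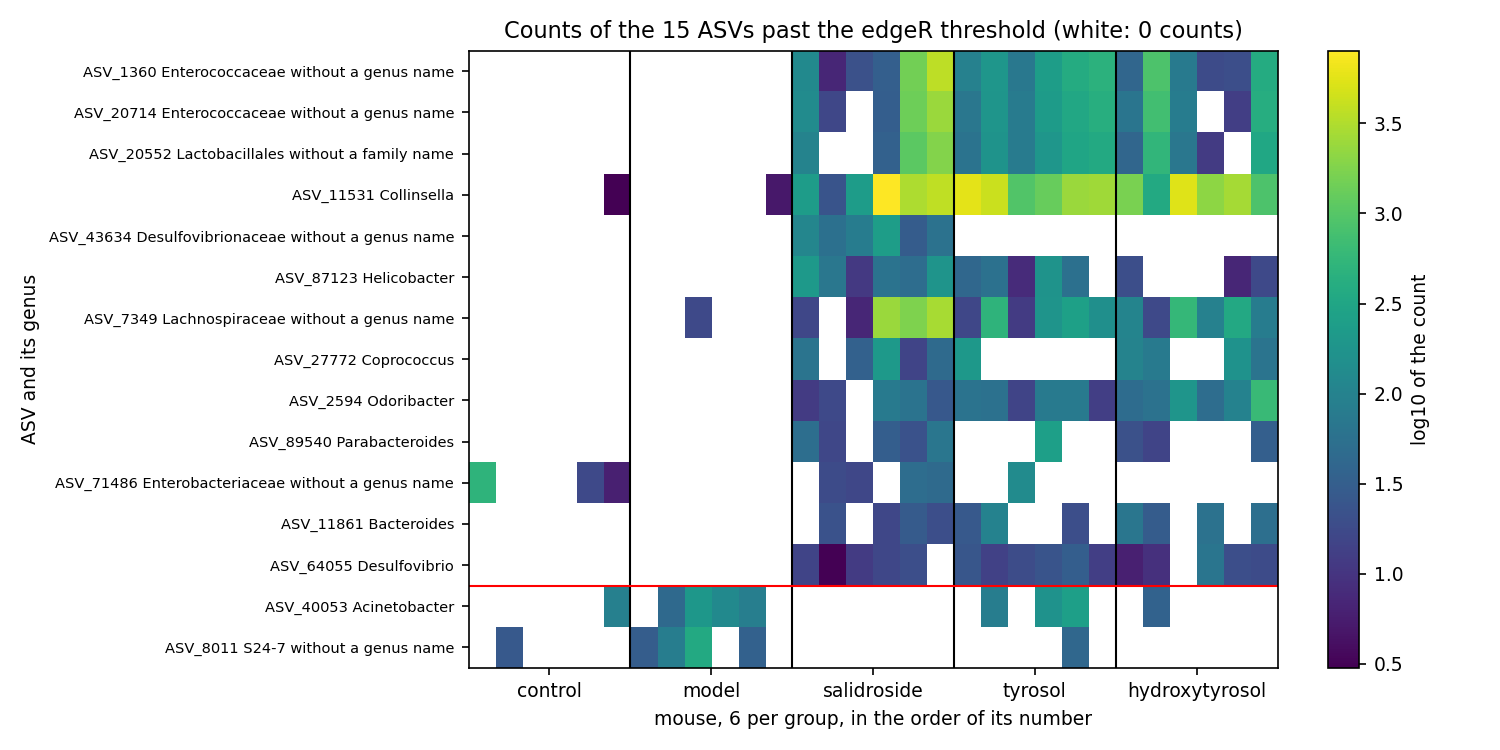
Counts on a log10 colour scale of the 15 ASVs past the edgeR threshold (rows) in each of the 30 mice (columns, 6 per group), with white for 0 counts. The 13 ASVs above the red line were higher in salidroside mice, and 11 of them are white in every model mouse, while 7 are present in 5 or 6 mice of both other treated groups.

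Presence alone was also counted, in the table that the authors drew down to 39768 counts per mouse. Of 466 ASVs present in 5 or more of the 12 mice, 12 (2.58%) were in 5 or 6 salidroside mice and 0 model mice, and 0 were the reverse. Among ASVs in 4 or more mice, 26 of 637 (4.08%) were in 4 or more salidroside mice and 0 model mice, and 8 (1.26%) were the reverse. Most of the 12 are ASVs already called above, so they are not separate evidence. An ASV found in a single group enters such a count through that group alone. Whether these numbers exceed chance was not tested. The 12 included 4 ASVs of Enterococcaceae without a genus name. They also included ASV_68141 of Subdoligranulum variabile and ASV_1395 of Holdemania, which the count test did not call.

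Most ASVs were found in few mice. Of 4709 ASVs in the even-depth table, 1033 were in both groups, 36.3% of the ASVs of salidroside mice and 35.7% of those of model mice. These shared ASVs held 85.4% of the counts of salidroside and 94.1% of those of model mice. Of the 1815 ASVs found only in salidroside mice, 90.5% were in a single mouse, as were 87.3% of the 1861 found only in model mice. Present in all 12 mice were 11 ASVs, among them those of Acinetobacter lwoffii, Jeotgalicoccus psychrophilus, Staphylococcus sciuri and Akkermansia muciniphila.

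At even depth, salidroside mice 1 to 6 held 62, 60, 50, 56, 63 and 60 families and model mice 1 to 6 held 69, 106, 62, 61, 72 and 79. The difference of -16.3 families had a 95% interval of -32.5 to -3.33, with a salidroside mouse higher in 3 of 36 pairs (exact permutation test, p = 0.017), and it did not pass after adjustment over 13 diversity measures (exact permutation test, adjusted p = 0.225). Model mouse 2 was the highest, and the control mice held 56.7 ± 2.88 families (SD, n = 6). Without model mouse 2 the difference was -10.1 families (exact permutation test, p = 0.019). Genera numbered 102.5 ± 10.6 and 123 ± 26.6 (SD, n = 6 each, exact permutation test, p = 0.056, adjusted p = 0.366). The difference of -20.7 genera became -10.3 without model mouse 2 (exact permutation test, p = 0.11), and its unadjusted exact p was 0.03 without model mouse 3 and 0.0087 without model mouse 4.

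The number of ASVs did not follow. It was 950, 908, 494, 556, 538 and 834 in salidroside mice 1 to 6 and 963, 661, 884, 902, 820 and 500 in model mice 1 to 6, a difference of -75 with an interval of -345 to 173. The ASV numbers of the groups overlapped, from 494 to 950 in salidroside mice and from 500 to 963 in model mice. ASVs of the listed gut families numbered 183.5 ± 37.4 in salidroside and 154 ± 59.8 in model mice (SD, n = 6 each, exact permutation test, p = 0.333), while control mice held 581 ± 393. ASVs of the listed aerobes numbered 192 ± 147 and 283 ± 157 (SD, n = 6 each, exact permutation test, p = 0.327). The Shannon index in base 2 differed by 0.187, with an interval of -0.725 to 1.06. The most abundant ASV held 23.96% ± 10.6 and 33.1% ± 8.56 of the counts (SD, n = 6 each, exact permutation test, p = 0.134).

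**Figure D5:**
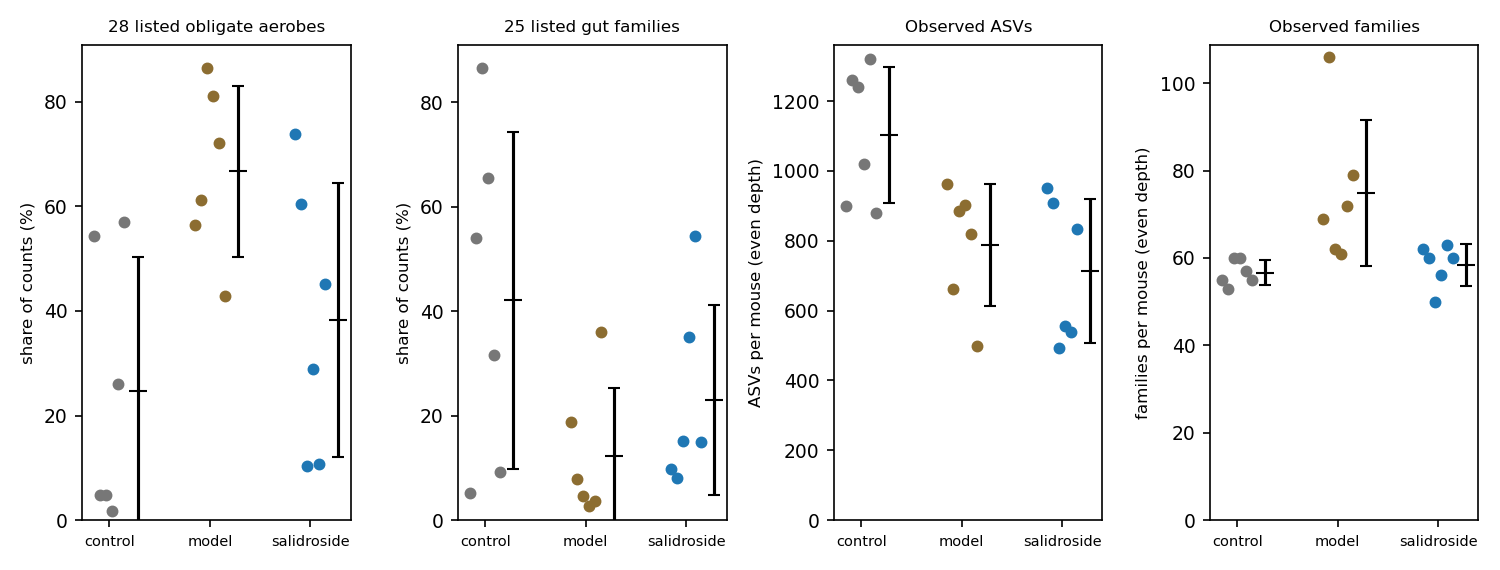
Per-mouse values in control, model and salidroside mice (6 each): share of counts (%) of the listed obligate aerobes and of the listed gut families, and the numbers of ASVs and of families at even depth. Bars show mean ± SD, cut at 0 where they would reach below it. Salidroside mice hold 50 to 63 families, and model mouse 2 holds 106.

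As whole communities the groups were not separated by the test. The Bray-Curtis distance measures how much of their counts a pair of mice does not share, and runs from 0 to 1. The fraction of its variation explained by group, R2, was 0.123 for ASVs (exact permutation test of the distances, p = 0.169), 0.102 for genera and 0.132 for families. Salidroside mice lay 0.787 apart on average and model mice 0.623, with 0.738 between the groups. Salidroside mice 1 and 2 were nearest to model mouse 3, at 0.312 and 0.405. Model mouse 1 was nearest to salidroside mouse 1, and model mouse 6 to salidroside mouse 4, the other mouse with much Sporosarcina. Salidroside mice were no nearer to the control mice than model mice were (0.882 and 0.879 on average, exact permutation test, p = 0.903).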

How the data were processed

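The study's methods name FLASH (version 1.2.11), QIIME (version 1.7.0) and UCHIME and a grouping of reads by similarity, and the labels name cutadapt. The deposited log instead lists filtering, denoising, merging, then removal of chimeras and singletons. The authors deposited raw counts per ASV, without normalization, in an unfiltered and a filtered (no singletons) table. A further table holds counts drawn down to an even depth of 39768 per mouse. The version of the taxonomy is not given in the sources used here. The deposited log of read counts gave the losses at each step. Mice were grouped by label and are numbered as in the sample titles. Taxa that reached 10 counts in 4 or more of the 12 mice were compared with edgeR 4.0.16 (TMM, quasi-likelihood, no block) in R 4.3.3 and by two-sided exact permutation tests of mean shares, adjusted by Benjamini-Hochberg. Intervals invert the exact test. Picked to be named were the 5 main phyla, the 10 most abundant families and genera, the taxa called and the genera the study names. Not every one has its share printed. The 9 lists of taxa come from general knowledge. Members, lists and tests were chosen with earlier results of these data known. Alternatives included DESeq2 1.42.0, limma 3.58.1 on centred log-ratios, other tables, filters and scalings, and each mouse left out. Both tests were checked on simulated data.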

Additional observations from a re-analysis of the deposited data

Results flagged for a closer look

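In 88 groups of 6 values tested for a value far from the others, 23 were marked by Dixon's ratio, where chance marks about 1 in 20. Shares of taxa are skewed, and 17 of the 23 were in model mice and 6 in salidroside mice.

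Model mouse 2 was high in 5 of these values, with 175 genera at even depth (next 121), 3.21% Brucellaceae (next 0.1504%), 3.63% Caulobacteraceae (next 0.0900%) and 0.379% Sphingobacteriaceae and Sphingobacterium (next 0.107% for both). Model mouse 6 was high in Firmicutes (78.2%), Planococcaceae (42.02%) and its genus Sporosarcina (41.9%), Desulfovibrionaceae (17.7%), Desulfovibrionaceae without a genus name (16.8%), Lachnospiraceae (14.6%) and, with 6 counts against 0, Collinsella (0.00598%). Model mouse 1 was high in Verrucomicrobia and Akkermansia (5.36% for both), Oscillospira (0.989%) and Carnobacteriaceae (0.1505%). Model mouse 5 was high in Enterococcaceae without a genus name (0.817%).

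Salidroside mouse 3 had few genera at even depth (82, next 102) and much Staphylococcus of the family Staphylococcaceae (16.6%). Salidroside mouse 4 was high in Planococcaceae (28.1%) and Sporosarcina (27.97%). Salidroside mouse 6 was high in Kurthia (0.597%) and Carnobacteriaceae (0.0120%).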

How the results depend on the processing

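edgeR called 8 families, 4 genera and 15 ASVs. Families came to 3 without the listed aerobes, with a minimum of 50 counts and with centred log-ratios, and 0 by the exact test of shares (8 at an unadjusted p under 0.05). Genera came to 2 under the first 3 of these settings, 12 without a minimum and 0 by the exact test (8 unadjusted). ASVs came to 6 with 50 counts and 0 without a minimum (1116 unadjusted in edgeR) or by the exact test (19 unadjusted). The numbers of the mice did not pair them (correlations of same-numbered mice from -0.44 to 0.20). The replicate block gave 1 family, 2 genera and 0 ASVs (20 unadjusted), and no longer called Coriobacteriaceae (edgeR adjusted p = 0.0734). Leaving out single mice gave 5 to 9 families, 2 to 4 genera and 0 to 27 ASVs. No called taxon turned direction under any alternative. For most of them this tests nothing, because they reached the minimum count in mice of 1 group alone, which fixed their direction. These were all called genera, all called ASVs but ASV_7349, and the families Sphingobacteriaceae, Microbacteriaceae and Xanthomonadaceae. Only ASV_7349 and the other called families were free to turn. The median log2 fold change of all genera moved from -0.10 to 0.28 with DESeq2, 0.40 with all 30 mice, 0.15 with a minimum of 50 counts, -0.40 with the replicate block, -1.62 without a minimum, and to between -0.64 (without salidroside mouse 3) and 0.17 (without model mouse 1) when single mice were left out.

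Without the listed aerobes, the difference in ASVs turned to 16.5 and that in the Shannon index to -0.22. Leaving out single mice gave -133 to -31.1 ASVs, -0.0243 to 0.413 for Shannon, 0.111 to 0.178 for R2, -35.6 to -22.9 percentage points for the aerobes (exact permutation p from 0.0195 to 0.108, under 0.05 without salidroside mouse 1 or 2 or model mouse 6) and 4.39 to 15.4 for the gut families. Of the named taxa, 10 had an unadjusted exact p under 0.05, 6 without the aerobes in the total, 4 with the block and 7 to 12 without single mice.

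The sign of 14 shares that passed no test depended on the setting. Among the phyla, the main differences were -20.9 percentage points for Proteobacteria, 19.1 for Firmicutes, 1.92 for Actinobacteria, 0.489 for Bacteroidetes and -0.0986 for Verrucomicrobia. None passed (exact permutation test, adjusted p = 0.907 for Verrucomicrobia and 0.646 for the others). On log10 shares the differences turned to 0.36 for Verrucomicrobia, -0.30 for Staphylococcaceae, 0.23 for Lachnospiraceae, -0.31 for Jeotgalicoccus, 0.40 for Sporosarcina, -0.19 for Staphylococcus (Staphylococcaceae), -0.20 for Enterococcus, 0.18 for Desulfovibrionaceae without a genus name, 0.37 for Akkermansia and -0.025 for Staphylococcus (Planococcaceae). Without the aerobes in the total they turned to 3.12 for Proteobacteria, -4.73 for Firmicutes, -5.42 for Staphylococcaceae, -7.58 for Staphylococcus (Staphylococcaceae), -5.39 for Enterococcus and -0.0992 for Staphylococcus (Planococcaceae). The causes were not tested. Without single mice the ranges were -0.486 to 0.759 (Verrucomicrobia), -1.52 to 11.1 (Staphylococcaceae), -7.78 to 3.47 (Planococcaceae), -0.999 to 1.91 (Lachnospiraceae), -6.90 to 4.73 (Sporosarcina), -1.89 to 1.51 (Staphylococcus of Staphylococcaceae), -1.15 to 1.51 (Enterococcus), -3.32 to 0.0294 (Desulfovibrionaceae without a genus name), -0.485 to 0.760 (Akkermansia), -0.155 to 0.00413 (Kurthia) and -0.0237 to 0.0892 (Staphylococcus of Planococcaceae).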
